A study of Mus musculus with 6 samples.

Results

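Anergic lymphocytes survive but respond weakly to their antigen, and 2 groups of proteins include known brakes on their antigen receptors. Ubiquitin ligases of the Cbl, Nedd4 and Pellino families attach ubiquitin to signalling proteins and so mark them for degradation or change what they bind. Diacylglycerol kinases turn diacylglycerol, the membrane lipid that recruits protein kinase C and Ras activators after receptor binding, into phosphatidic acid. The 10 genes described here were taken by symbol and cover 5 ligases (Cbl, Cblb, Itch, Nedd4 and Peli1), the ligase adaptor Ndfip1 and 4 diacylglycerol kinases (Dgka, Dgkz, Dgkd and Dgke). All 10 of 10 were found among the 24346 genes in the files, and all 10 of 10 had at least 1 FPKM (mapped fragments corrected for transcript length and library size) in at least 3 libraries, the minimum for testing. Much of what is known of these brakes comes from T cells.

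RNA sequencing was done on splenic follicular B cells, sorted as B220+ CD93- cells with low CD21 and high CD23, from mice 8 weeks old. In 3 libraries the mice were homozygous for the G9gl heavy and light chain knock-in, the germline precursor of an antibody to double-stranded DNA from a lupus patient, and in 3 libraries they were B6 controls, called WT. The comparison was made to learn about the anergic state of G9gl B cells. Whether each library is a separate mouse is not stated, so the p-values reflect only how these libraries vary, which may be technical.

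By an estimate from low FPKM values, the libraries held 9340000 to 10800000 fragments. Of 9 B cell markers tested, Cd22 was called higher and 4 lower (Cd79a, Ms4a1, Pax5 and Fcer2a, the CD23 gene of the gate); their sum was 7819 to 8217 FPKM in G9gl libraries and 8532 to 8823 FPKM in WT libraries. Cd93, which marks immature cells, averaged 1.46 FPKM in G9gl libraries and 1.65 FPKM in WT libraries. Cr2, the CD21 gene of the gate, was called lower in G9gl, with a log2 fold change of -1.09. Of 10122 tested genes, 1191 passed as higher and 1174 as lower in G9gl libraries (limma on log2(FPKM + 1), adjusted p under 0.05), which is 11.8% and 11.6%. With values rescaled to TPM the split was 763 higher and 2495 lower, and the median log2 fold change of all genes was -0.12, against -0.0020 on the FPKM scale. Immunoglobulin genes were not analysed here. Only 3 symbols in the files start with Igh, Igk or Igl, and the rescaled values are shares of all genes in the files.

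Of the 10 genes, 5 were lower in G9gl B cells, 0 were higher and 5 did not pass the test. Nedd4 and Cblb fell most, Itch, Dgkz and Dgka less, and Cbl, Ndfip1, Dgkd, Dgke and Peli1 did not pass. The 5 of 10 called lower stand beside 11.6% of all tested genes called lower. The 10 genes and the lists below were chosen with earlier results of these data known, so such shares are a description only. In 7 of 10, all G9gl libraries lay below all WT libraries, against 20.5% of all tested genes; libraries were apart with G9gl higher in 20.3%, and in either direction in 40.8%. The median log2 fold change over the 10 genes was -0.24, and 9 of 10 values were below 0. At an unadjusted p under 0.05 in limma, 7 were lower and 0 higher, against 18.0% of all tested genes lower and 18.5% higher. Leaving out WT replicate 2 gave 3 called lower, beside 7.09% of all tested genes, and rescaling to TPM gave 8, beside 23.6%. In bulk samples, fewer cells of a type and less RNA per cell cannot be told apart.

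**Figure D1:**
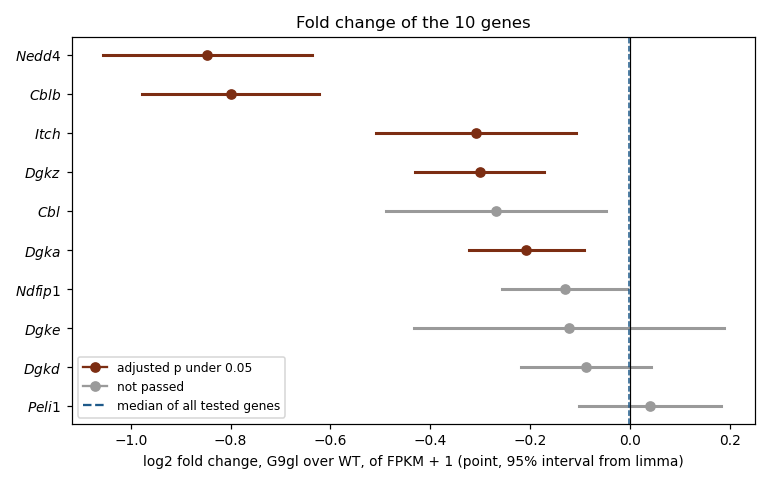
Fold changes of the 10 genes. The x axis gives the log2 fold change of FPKM + 1, G9gl over WT, with its 95% interval from limma, and the y axis the genes, lowest value at the top; Nedd4 (-0.85) and Cblb (-0.80) lie well apart from the other 8, and the dashed line is the median of all tested genes.

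Cblb (chromosome 16, 52031225 to 52208048, mm10), the ligase whose loss in mice frees T cells from the need for costimulation, had 11.7, 13.04 and 13.2 FPKM in the G9gl libraries, against 23.4, 21.9 and 22.9 FPKM in the WT libraries. The groups stood far apart, with each G9gl library below every WT library. The log2 fold change was -0.80 ± 0.079 (SE, n = 3 per group), a fall of 1.74-fold on the log2(FPKM + 1) scale, with a limma adjusted p of 0.00014. Of all tested genes it ranked 170 by p.

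Cbl (chromosome 9, 44142976 to 44234049), which encodes c-Cbl, a ligase for activated tyrosine kinases such as Syk, had 14.8, 13.5 and 14.9 FPKM in G9gl libraries, against 15.8, 20.01 and 17.1 FPKM in WT libraries. The groups did not overlap, but WT replicate 1 lay close to the nearest G9gl library. The log2 fold change of -0.27 ± 0.098 (SE) did not pass, with a 95% interval of -0.49 to -0.048 and a limma adjusted p of 0.079. It passed as lower on the TPM scale (adjusted p 0.018) and with library weights (0.046), and the adjusted p over all alternatives ran from 0.018 to 0.33. It was -0.12 (adjusted p 0.33) after correction for GC and length and -0.18 (0.25) without WT replicate 2.

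The order of the 2 relatives differed between the groups. In each G9gl library Cbl was above Cblb, while in each WT library Cblb was above Cbl. Cblb made up 46.6 ± 2.55% of the summed FPKM of Cbl, Cblb and Cblc in G9gl libraries and 56.0 ± 4.06% in WT libraries (SD, n = 3 each). The log2 ratio of Cblb over Cbl (here and below of FPKM + 1) was -0.32, -0.048 and -0.17 in the G9gl libraries, against 0.54, 0.12 and 0.40 in the WT libraries. The difference of -0.53 had an exact permutation p of 0.1, two-sided, which is the smallest that 3 against 3 libraries can give (0.17 adjusted over 5 pairs). The summed FPKM of the 3 genes was 27.1 ± 0.910 in G9gl libraries and 40.6 ± 1.54 in WT libraries, and Cblc stayed under 1 FPKM in all 6.

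**Figure D2:**
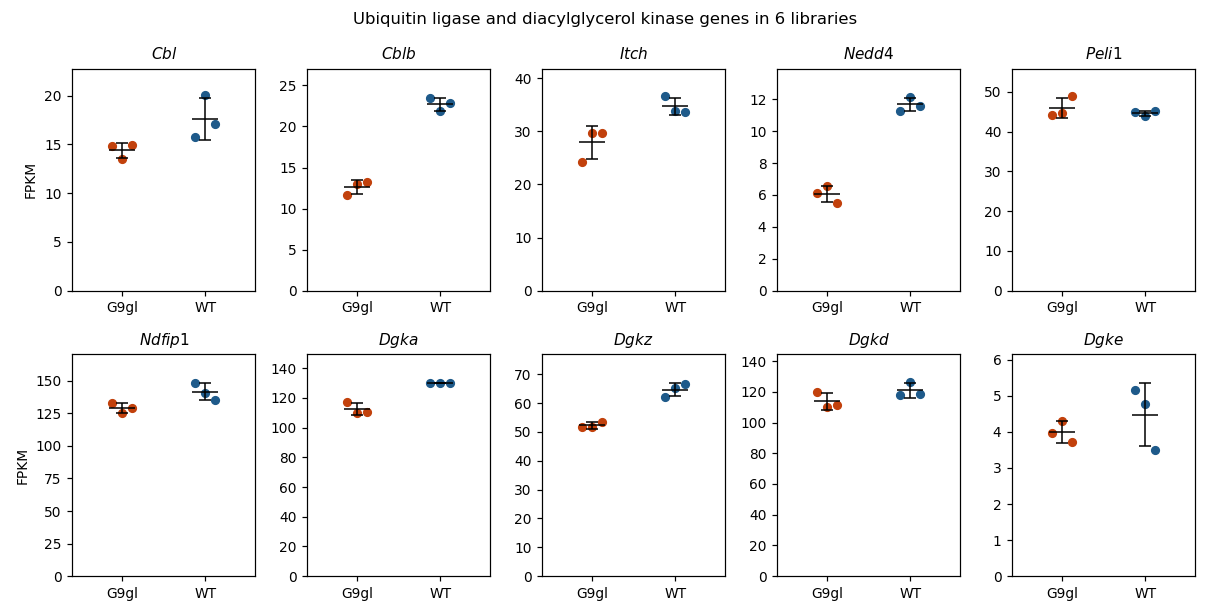
FPKM of each of the 10 genes by library. Each point is 1 library, G9gl left and WT right, with the mean as a bar and the SD over 3 libraries as whiskers; the y axes start at 0 and differ between genes. For Cblb, Nedd4, Itch, Dgka, Dgkz, Cbl and Ndfip1 the G9gl points lie below all WT points, while for Peli1, Dgkd and Dgke the groups overlap.

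Nedd4 (chromosome 9, 72662346 to 72749852) is the founding member of the family of ligases with a HECT domain and WW domains, which bind short proline-rich motifs. It had 6.10, 6.54 and 5.53 FPKM in G9gl libraries, against 11.3, 12.1 and 11.6 FPKM in WT libraries. The highest G9gl library was well below the lowest WT library. It had the lowest fold change of the 10 genes, a log2 value of -0.85 ± 0.093 (SE), a fall of 1.80-fold with a limma adjusted p of 0.00025.

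Itch (chromosome 2, 155133509 to 155226855), a ligase of the same family whose known substrates in T cells include JunB, had 24.3, 29.8 and 29.7 FPKM in G9gl libraries, against 36.6, 33.8 and 33.7 FPKM in WT libraries. G9gl replicate 1 was the lowest, and the groups did not overlap. Its log2 fold change was -0.31 ± 0.089 (SE), a fall of 1.24-fold with a limma adjusted p of 0.034. The call was lost without G9gl replicate 1 (log2 fold change -0.21, adjusted p 0.065) and without WT replicate 1, 2 or 3 (adjusted p 0.10, 0.077 and 0.065). It was also lost with the replicate number as a block (adjusted p 0.064), without a filter on low values (0.085) and without a mean-variance trend (0.063). Over its 18 alternatives the adjusted p ran from 0.0068 to 0.10.

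In the Nedd4 family, Nedd4, Itch and Nedd4l were called lower in G9gl. Nedd4l, the closest relative of Nedd4, averaged 4.74 ± 0.800 FPKM in G9gl libraries and 7.61 ± 0.575 FPKM in WT libraries (SD, n = 3 each; limma adjusted p 0.0074). Wwp2, the most abundant of the family in these cells, had 46.5 ± 2.51 FPKM in G9gl libraries and 49.8 ± 1.57 FPKM in WT libraries and did not pass (adjusted p 0.31). Nedd4 was 6.13 ± 0.429% of the family's summed FPKM in G9gl libraries and 9.93 ± 0.340% in WT libraries, while Itch was 28.2 ± 2.61% in G9gl libraries and 29.5 ± 1.38% in WT libraries. The log2 ratio of Itch over Nedd4 was higher by 0.54 in G9gl, with an exact permutation p of 0.1, the smallest possible, and 0.17 over the 5 pairs.

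Peli1 (chromosome 11, 21091291 to 21150323), a Pellino ligase that targets the NF-kB subunit c-Rel in T cells, had 44.3, 44.7 and 49.0 FPKM in G9gl libraries, against 44.8, 44.0 and 45.2 FPKM in WT libraries. The groups overlapped, and G9gl replicate 3 was the highest library. Its log2 fold change of 0.040 ± 0.063 (SE) did not pass (limma adjusted p 0.69), and its 95% interval ran from -0.10 to 0.18. It was -0.091 on the TPM scale, -0.010 after correction for GC and length, and -0.0060 without G9gl replicate 3. Peli2 and Peli3 stayed under 1 FPKM in all libraries, so that Peli1 made up 99.6% of the family's FPKM in both groups.

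Ndfip1 (chromosome 18, 38410396 to 38465303), a membrane adaptor that binds and activates Itch and Nedd4, had the highest level of the 10 genes in both groups. It had 133, 125 and 129 FPKM in G9gl libraries, against 149, 141 and 135 FPKM in WT libraries. All G9gl values were below all WT values, with a small gap between the nearest. The log2 fold change of -0.13 ± 0.056 (SE) did not pass (limma adjusted p 0.12, 95% interval -0.26 to -0.0050), but did after quantile normalization (-0.19, adjusted p 0.040) and on the TPM scale (-0.26, adjusted p 0.0071), with a range of 0.0071 to 0.32 over all alternatives. Its relative Ndfip2 averaged 15.3 ± 0.249 FPKM in G9gl libraries and 16.0 ± 0.302 FPKM in WT libraries (SD, n = 3 each) and did not pass (adjusted p 0.57).

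Dgkz (chromosome 2, 91932824 to 91975864), the zeta kinase, limits Ras and ERK signals in lymphocytes. It had 51.7, 51.6 and 53.5 FPKM in G9gl libraries, against 62.1, 65.1 and 66.7 FPKM in WT libraries. Every G9gl library was below every WT library. Its log2 fold change was -0.30 ± 0.057 (SE), a fall of 1.23-fold with a limma adjusted p of 0.0051. After correction for GC and length it was -0.19 (adjusted p 0.032, the highest over its 18 alternatives, of which the lowest was 0.00087).

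Dgka (chromosome 10, 128720134 to 128744855), the alpha kinase, which calcium activates and which is known as an anergy gene in T cells, had 117, 109.6 and 111 FPKM in G9gl libraries, against 130.0, 129.9 and 130.1 FPKM in WT libraries. The WT libraries were nearly equal, and all G9gl libraries were lower. Dgka fell by 0.21 ± 0.051 (SE) on the log2 scale, or 1.16-fold with a limma adjusted p of 0.018. The call was lost without G9gl replicate 2 (adjusted p 0.077), G9gl replicate 3 (0.064) or WT replicate 2 (0.056), and without a mean-variance trend (0.061). On the TPM scale it was -0.34 (adjusted p 0.0013, the lowest over its 18 alternatives).

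Dgkd (chromosome 1, 87853287 to 87945180), the delta kinase, had 120.0, 110.2 and 111 FPKM in G9gl libraries, against 118, 126 and 119 FPKM in WT libraries. G9gl replicate 1 lay among the WT libraries. The log2 fold change was -0.088 ± 0.058 (SE) and did not pass (limma adjusted p 0.31, 95% interval -0.22 to 0.042). It was 0.012 (adjusted p 0.89) after correction for GC and length, and passed as lower on the TPM scale (-0.22, adjusted p 0.020); all other alternatives lay between these p-values, and without WT replicate 2 it was -0.056.

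Dgke (chromosome 11, 89035179 to 89066850), the epsilon kinase, which prefers diacylglycerol with an arachidonate chain, was the lowest of the 10 genes in both groups. It had 3.98, 4.30 and 3.71 FPKM in G9gl libraries, against 5.16, 4.78 and 3.49 FPKM in WT libraries. WT replicate 3 was the lowest library of all, so the groups overlapped. The log2 fold change of -0.12 ± 0.14 (SE) did not pass (limma adjusted p 0.56), and the 95% interval of -0.43 to 0.19 was the widest of the 10. It was -0.017 (adjusted p 0.94) after correction for GC and length, -0.25 (0.24) on the TPM scale, -0.076 (0.80) without WT replicate 2, -0.080 (0.77) without G9gl replicate 3, -0.031 (0.91) without WT replicate 1 and -0.26 (0.18) without WT replicate 3.

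By level, Dgka and Dgkd dominated the diacylglycerol kinases. Dgka made up 38.5 ± 0.186% of the summed FPKM of all 10 kinase genes in G9gl libraries and 39.4 ± 0.772% in WT libraries (SD, n = 3 each). Dgkd made up 39.0 ± 0.549% in G9gl libraries and 36.7 ± 0.792% in WT libraries, and Dgkz 17.9 ± 0.780% in G9gl libraries and 19.6 ± 0.586% in WT libraries. In WT libraries Dgka was above Dgkd without overlap, while in G9gl libraries these neighbours overlapped. The sum over the 10 kinase genes was 303, 284 and 289 FPKM in G9gl libraries, against 324, 336 and 329 FPKM in WT libraries. Of the 6 kinases that are not among the genes described, only Dgkq and Dgkh were tested, and neither passed (limma adjusted p 0.90 and 0.68). Dgkq had 8.10 ± 0.986 FPKM in G9gl libraries and 8.22 ± 0.621 FPKM in WT libraries, and Dgkb, Dgkg, Dgki and Dgkk stayed under 1 FPKM in every library.

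**Figure D3:**
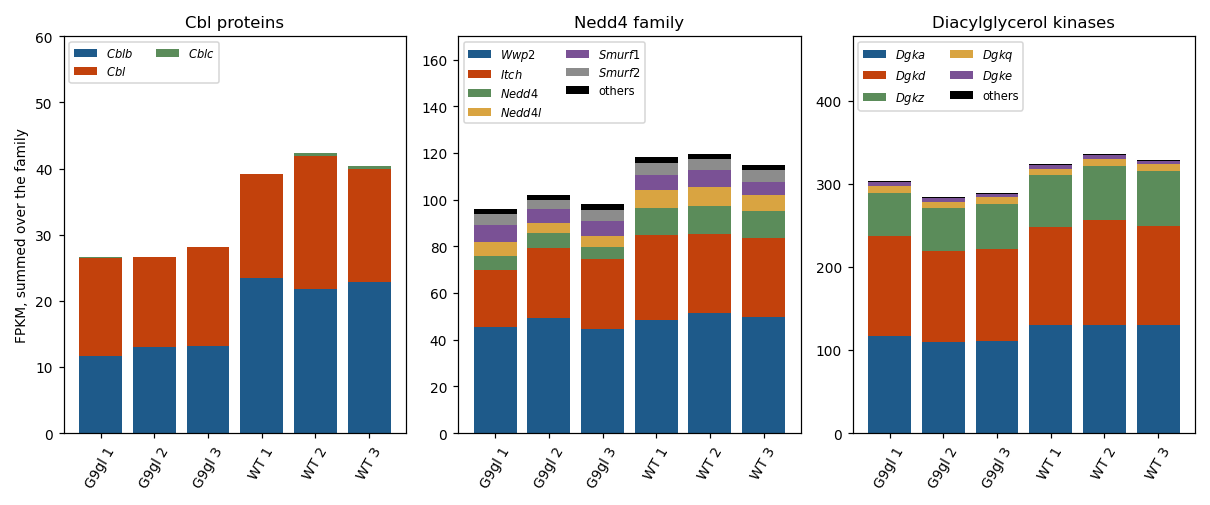
Summed FPKM of the Cbl, Nedd4 and diacylglycerol kinase families by library. Bars are libraries, G9gl 1 to 3 left of WT 1 to 3, colours are genes and y axes start at 0; the sums were lower in each G9gl library than in each WT library (Cbl proteins 27.1 against 40.6 FPKM on average, diacylglycerol kinases 292 against 330.0 FPKM).

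Within the kinases, the log2 ratios differed between the groups by 0.093 and 0.034. The log2 ratio of Dgka over Dgkz was 1.09 ± 0.068 in G9gl libraries and 0.998 ± 0.052 in WT libraries (SD, n = 3 each, exact permutation p 0.20, adjusted 0.25). The log2 ratio of Dgkd over Dgke was 4.52 ± 0.12 in G9gl libraries and 4.49 ± 0.24 in WT libraries (SD, n = 3 each, exact permutation p 1.0). That of Ndfip1 over Itch was 2.18 ± 0.20 in G9gl libraries and 1.998 ± 0.026 in WT libraries, with an exact permutation p of 0.1 and 0.17 adjusted. Without G9gl replicate 1 the difference was 0.062 instead of 0.18 for Ndfip1 over Itch, and 0.056 instead of 0.093 for Dgka over Dgkz.

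Promoters are shown for Nedd4 and Dgkz, which were lower in G9gl, and for Peli1, which did not pass. Sequences are from RefSeq (GRCm38.p6), read 5′ to 3′ on the gene's strand, and lie before a RefSeq start, cut where an annotated exon begins. The Dgkz stretch lies inside the gene, before a start downstream of the first. Capitals mark GC boxes (GGGCGG or its reverse complement) and, in Nedd4 alone, a site of the EGR type (GCGNGGGCG, either strand) that overlaps the last GC box. The EGR factors include Egr2, which is known to induce Cblb in T cells.
Nedd4, chr9:72662081-72662330, plus strand: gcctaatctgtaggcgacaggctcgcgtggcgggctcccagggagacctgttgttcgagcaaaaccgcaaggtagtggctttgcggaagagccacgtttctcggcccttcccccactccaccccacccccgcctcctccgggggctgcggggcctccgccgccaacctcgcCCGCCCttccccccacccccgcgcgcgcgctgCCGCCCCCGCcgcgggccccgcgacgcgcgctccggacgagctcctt
Dgkz, chr2:91963658-91963813, minus strand: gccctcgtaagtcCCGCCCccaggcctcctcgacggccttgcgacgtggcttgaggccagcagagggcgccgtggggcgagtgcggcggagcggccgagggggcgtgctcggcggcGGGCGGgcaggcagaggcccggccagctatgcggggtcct
Peli1, chr11:21091074-21091290, plus strand: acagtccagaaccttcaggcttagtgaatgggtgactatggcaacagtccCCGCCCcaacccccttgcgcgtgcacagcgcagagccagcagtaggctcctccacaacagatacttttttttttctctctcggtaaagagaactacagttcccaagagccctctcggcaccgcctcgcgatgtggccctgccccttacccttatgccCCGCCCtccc

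Over the 250 bases before each RefSeq start, 8 of the 10 genes had 13 windows, since some have several starts. A GC box was in 11 of 13, against 32.7% of all 32851 windows, and it was there in genes that fell and in genes that did not pass. The EGR type of site was in 2 of 13, 1 each of Cbl and Nedd4, against 4.70% of all windows, and its strict form, with T at the open base, in 0 of 13 (0.536%). The FOXO motif GTAAACA was in 0 of 13 (3.17% of all windows), as was an NF-kB motif (4.11%). The NFAT motif GGAAAA was in 1 window of Dgka (20.4% of all windows) and the AP-1 motif TGANTCA in 1 of Nedd4 (6.75%). All motifs were searched on both strands, and a match of letters is a description only.

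Of 35 tested genes that make, remove or respond to diacylglycerol or phosphatidic acid, or act after them, 4 were higher and 12 lower, beside 11.8% and 11.6% of all tested genes, and 19 did not pass, with a median log2 fold change of -0.19 against -0.0020 for all tested genes. Rasgrp3 and Rasgrp1, which encode Ras activators recruited by diacylglycerol, were called in opposite directions. Rasgrp3 had 124.5, 125.5 and 124.3 FPKM in G9gl libraries, against 89.3, 87.2 and 83.9 FPKM in WT libraries (limma adjusted p 0.00014). Rasgrp1 had 35.6, 34.1 and 35.2 FPKM in G9gl libraries, against 51.4, 52.2 and 51.7 FPKM in WT libraries (adjusted p 0.00017). Rasgrp2, whose product is activated by calcium and acts mainly on Rap1, had 59.6, 44.8 and 43.1 FPKM in G9gl libraries, against 99.6, 97.8 and 99.9 FPKM in WT libraries (adjusted p 0.00020). Prkcb, which encodes a protein kinase C, averaged 92.0 ± 6.05 FPKM in G9gl libraries and 141 ± 4.87 FPKM in WT libraries. Besides Rasgrp3, the genes called higher were Chn2, which encodes a chimaerin that binds diacylglycerol, Bcl10, which links protein kinase C to NF-kB, and Ppap2a, which encodes a phosphatase of phosphatidic acid. Beyond Rasgrp1, Rasgrp2 and Prkcb, the genes called lower included Plcg2, the phospholipase that makes diacylglycerol in B cells, Prkcd, Prkce, Prkd2, Malt1, Mapk3, Ppap2b and Cds2. Without WT replicate 2, 7 of the genes were lower, beside 7.09% of all tested genes.

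Of 34 other ligases, adaptors and deubiquitinases tested, 2 were higher, 4 lower and 28 did not pass, with a median log2 fold change of -0.035. The count called lower is near the 11.6% of all tested genes called lower, and 11.8% were called higher. Dtx1, a Deltex ligase gene tied to Notch signalling and T cell anergy, had 28.7, 24.96 and 26.5 FPKM in G9gl libraries, against 46.5, 55.0 and 51.9 FPKM in WT libraries, a log2 fold change of -0.91 ± 0.082 (SE, limma adjusted p 8.1e-05). Nedd4l, Traf3 and March1 were the other genes called lower. The genes called higher were Ubash3b, a phosphatase that binds Cbl proteins, with 6.83 ± 0.574 FPKM in G9gl libraries and 4.13 ± 0.596 FPKM in WT libraries, and Tnfaip3, which encodes the ubiquitin-editing enzyme A20, with 32.8 ± 1.496 FPKM in G9gl libraries and 25.5 ± 1.22 FPKM in WT libraries (SD, n = 3 each). Rnf128, the GRAIL ligase of T cell anergy, stayed under 1 FPKM in all libraries. On the TPM scale 11 of these genes were lower, beside 23.6% of all tested genes. Without G9gl replicate 2, WT replicate 1 or WT replicate 2 there were 2, beside 7.91%, 8.69% and 7.09% of all tested genes.

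Of 38 tested partners, substrates and regulators of the 10 genes, 7 passed as higher and 8 as lower, beside 11.8% and 11.6% of all tested genes, and 23 did not pass (median log2 fold change -0.039). Egr2 averaged 31.6 ± 0.738 FPKM in G9gl libraries and 7.10 ± 0.542 FPKM in WT libraries, a rise with a limma adjusted p of 8.7e-07. Egr1 was also called higher, with 82.3 ± 13.1 FPKM in G9gl libraries and 45.7 ± 8.9 FPKM in WT libraries (limma adjusted p 0.0039), while Egr3 did not pass (0.90). Vav3, an exchange factor gene, averaged 18.2 ± 2.39 FPKM in G9gl libraries and 7.37 ± 0.349 FPKM in WT libraries. Its relative Vav2 was called lower, with 18.6 ± 4.9 FPKM in G9gl libraries and 31.9 ± 0.728 FPKM in WT libraries (limma adjusted p 0.005). Vav1 did not pass (adjusted p 0.24). Sh3kbp1, which encodes the Cbl-binding adaptor CIN85, had 69.3, 69.7 and 70.3 FPKM in G9gl libraries, against 92.8, 95.2 and 86.0 FPKM in WT libraries (adjusted p 0.0015), and Fyn, a Src-family kinase gene, averaged 16.8 ± 2.67 FPKM in G9gl libraries and 28.1 ± 1.45 FPKM in WT libraries. Syk, a kinase that c-Cbl targets, had 192.5 ± 5.91 FPKM in G9gl libraries and 216 ± 15.6 FPKM in WT libraries and did not pass (adjusted p 0.087). The number called higher was 4 on the TPM scale, without a mean-variance trend, or when G9gl replicate 3 or WT replicate 2 was left out. Beside these stand 7.22%, 9.78%, 9.27% and 8.17% of all tested genes called higher. On the TPM scale 16 were lower, beside 23.6% of all tested genes.

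**Figure D4:**
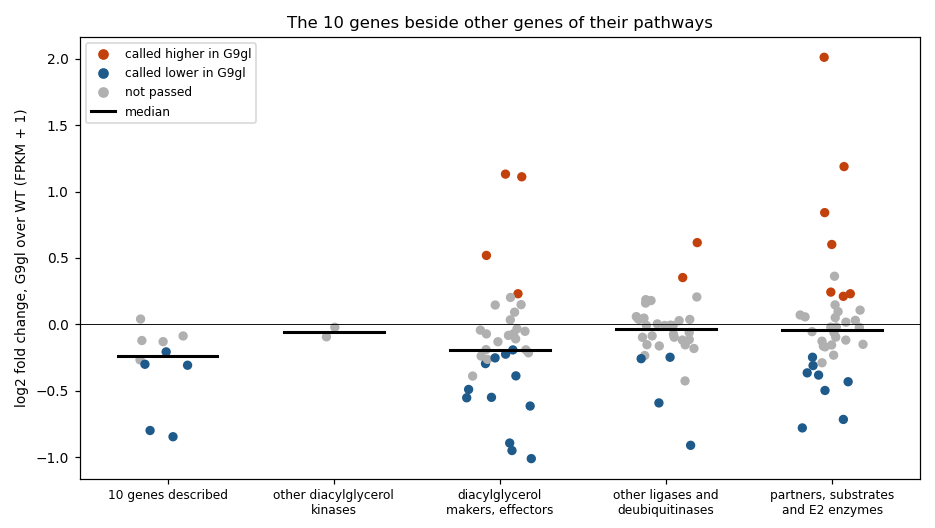
Log2 fold change (y axis, G9gl over WT, FPKM + 1) of the 10 genes and of 4 lists of related genes (x axis). Each point is a tested gene, black bars are medians, and Bcl10 and Traf3 stand on 2 lists; the medians are -0.24 for the 10 genes, -0.058, -0.19, -0.035 and -0.039 for the lists.

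Over the 6 libraries, the genes with a pattern closest to Cblb, by root mean square distance of log2(FPKM + 1) centred on each gene's mean, were Chchd10 (0.045), Prkab2 (0.060) and Ndst1 (0.070). Chchd10 averaged 97.5 FPKM in G9gl libraries and 172 FPKM in WT libraries, and Ndst1 averaged 10.4 FPKM in G9gl libraries and 19.2 FPKM in WT libraries. Closest to Dgkz were Ap4m1 (0.0087), Map3k14 (0.017) and Orai2 (0.020). Orai2, the gene of a calcium channel subunit, averaged 28.3 FPKM in G9gl libraries and 35.4 FPKM in WT libraries. Ap4m1 did not pass the test (limma adjusted p 0.063).

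Several of the 10 genes are also expressed by T cells and myeloid cells. The summed level of 15 T cell markers was 10.2 to 11.7 FPKM in G9gl libraries and 6.93 to 10.1 FPKM in WT libraries, and 0 of the 4 tested were called, with no single marker above 3.34 FPKM. Macrophage markers summed to 60.8 to 67.8 FPKM over 16 genes in G9gl libraries and 23.3 to 31.4 FPKM in WT libraries, with 9 of 11 tested called higher. Markers of granulocytes summed to 14.85 to 34.7 FPKM in G9gl libraries and 2.11 to 7.78 FPKM in WT libraries, those of plasma cells to 143 to 152.5 FPKM in G9gl libraries and 128 to 142 FPKM in WT libraries. Most of the plasma cell sum was Xbp1, which did not pass, while Jchain (6.23 FPKM in G9gl libraries, 0.580 FPKM in WT libraries; limma adjusted p 1.4e-05) and Sdc1 were called higher and Irf4 lower. Those of dendritic cells summed to 3.09 to 4.68 FPKM in G9gl libraries and 1.403 to 1.745 FPKM in WT libraries, of natural killer cells to 5.76 to 9.26 FPKM in G9gl libraries and 2.11 to 3.60 FPKM in WT libraries, and of erythroid cells to 60.2 to 219.8 FPKM in G9gl libraries and 41.5 to 43.4 FPKM in WT libraries. Most of the natural killer sum in G9gl libraries was Prf1, which averaged 6.435 FPKM there and 1.73 FPKM in WT libraries. The other natural killer markers were too low to test and overlapped between the groups. Of these, Klre1 was at 0 in all libraries. Prf1, Zbtb46 and S100a8, of the natural killer, dendritic and granulocyte lists, were also called higher. The part of such other cells in the values of the 10 genes was not tested.

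**Figure D5:**
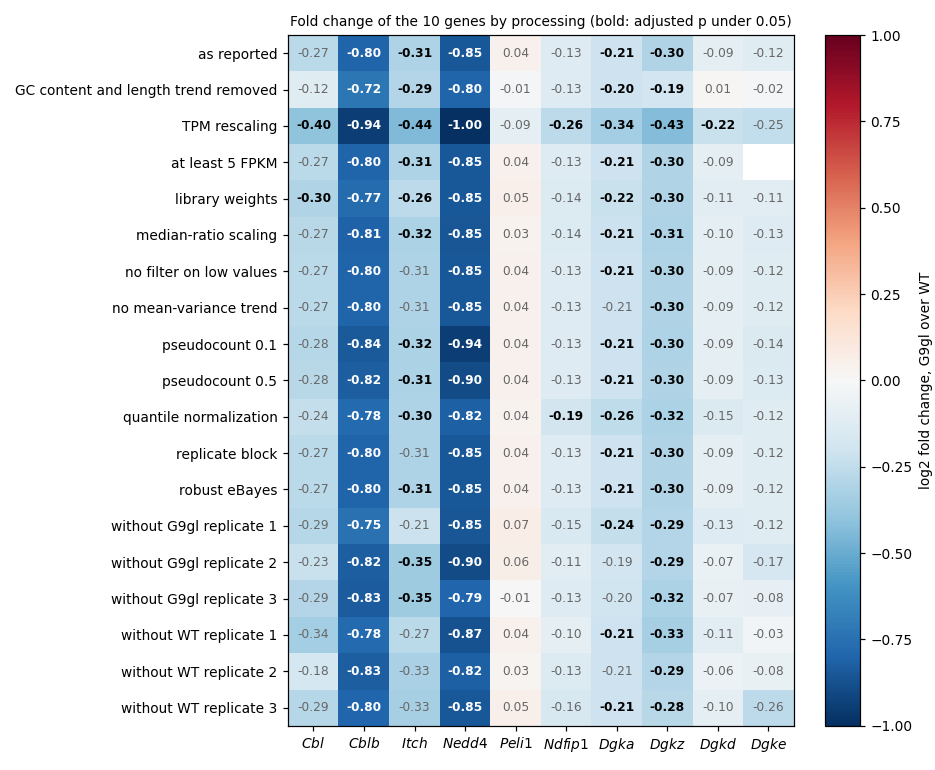
Log2 fold change of the 10 genes (x axis) under each processing (y axis), G9gl over WT. Bold values passed at an adjusted p under 0.05; Cblb, Nedd4 and Dgkz passed in each of the 18 alternatives, Itch in 11 and Dgka in 14. Dgke was not tested at a minimum of 5 FPKM, hence the empty cell.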

How the data were processed

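Each library has 1 file of FPKM by gene symbol, as deposited by the authors. Per the labels' protocols, Trizol RNA was turned into cDNA (SMART-Seq HT) and Nextera libraries, which keep no strand. Per the submitters' processing notes, the tools were Cufflinks 2.2.1, SAMtools 0.1.19, TopHat2 2.0.13 and Bowtie2 2.2.3, on mm10; annotation and filters were not given in the sources used here. Genes reaching 1 FPKM in 3 or more libraries of 6 entered limma 3.58.1 in R 4.3.3 (two-sided, mean-variance trend, genotype as the only term, Benjamini-Hochberg adjustment over all tested genes) on log2(FPKM + 1), a scale that understates changes of low genes. The fit was tested on simulated data. Ratios were tested by exact permutation (scipy 1.17.1). Depth was estimated from the value of 1 fragment in genes with a single transcript of at least 1500 bases. By this estimate and the longest annotated transcript, at least about 270 fragments lay behind each value of the 10 genes; this covers counting error only. No pair of libraries shared more than 2 equal nonzero values. Coordinates, GC content and lengths came from GENCODE vM21 (GRCm38, the assembly of mm10) by symbol, with 96.2% of tested genes matched. Dgka overlaps Pmel and Dgkd overlaps Usp40 on the opposite strand, at 0.458 and 6.15 FPKM in G9gl libraries and 0.469 and 6.55 FPKM in WT libraries, and Dgke overlaps the antisense gene Dgkeos, at 0.0588 FPKM in G9gl libraries and 0 in WT libraries, so their fragments cannot be told apart there. The members and lists were chosen with earlier results of these data known. The text names all 10 genes, the called genes with the 4 smallest p of each list or all where a count was 5 or fewer, and the 3 closest patterns to Cblb and Dgkz. Relatives that did not pass or were not tested, and the called relatives Egr1 and Vav2, were named after their values were seen. Alternatives were other pseudocounts (0.1 and 0.5), filters, scalings and fits, a block on replicate number, and fits without 1 library. Some items are not reported here.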

Additional observations from a re-analysis of the deposited data

How the results depend on the processing

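Of 179 values of the 10 genes under 17 or 18 alternatives each, 159 kept their direction and side of the threshold, 11 lost a call, 5 gained one and 4 changed sign, all 4 in genes that did not pass. The calls for Cblb, Nedd4 and Dgkz held in all 18. Leaving out 1 library gave log2 fold changes of -0.83 to -0.75 for Cblb, -0.90 to -0.79 for Nedd4 and -0.33 to -0.28 for Dgkz. Peli1 was -0.010 after correction for GC and length, -0.091 as TPM and -0.0060 to 0.066 without 1 library, and Dgkd was 0.012 after that correction. The Dgkd over Dgke difference was -0.076 to 0.16 without 1 library. With values rescaled to TPM, 763 genes were higher and 2495 lower, or 7.22% and 23.6% of all tested genes. There 8 of the 10 genes, 11 other ligases and 16 partners were lower and 4 partners higher. That scaling moved all genes down by 0.12 at the median. Without a mean-variance trend 3 of the 10 genes were lower and 4 partners higher, beside 10.1% lower and 9.78% higher of all tested genes. With a minimum of 5 FPKM 2 diacylglycerol pathway genes were higher, since fewer low genes were tested, beside 12.5% of all tested genes. Without 1 library, 718 to 1172 genes in all were lower (718 without WT replicate 2), or 7.09% to 11.6% of all tested genes. Called lower were then 3 to 4 of the 10 genes, 7 to 11 diacylglycerol pathway genes and 2 to 3 other ligases. Of the partners, 4 to 7 were higher, beside 8.17% to 11.2% of all tested genes. The cause was not tested.

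Same-numbered libraries deviated together with correlations of 0.099, -0.069 and 0.021, and differently numbered ones with -0.153 to 0.157. With 3 libraries per group, these correlations cannot decide whether replicate numbers pair the samples. With the replicate block 1044 genes were higher and 988 lower (10.3% and 9.76% of all tested genes), and 4 of the 10 genes were lower. In that block Itch did not pass (adjusted p 0.064).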

Other observations

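Genes of the linear ubiquitin chain assembly complex, which serves NF-kB signalling and was named after its values were seen, did not pass the test. Rbck1, which encodes the subunit HOIL-1, had 121, 119 and 119 FPKM in G9gl libraries, against 113, 125 and 119.5 FPKM in WT libraries (limma adjusted p 0.97). Sharpin averaged 69.2 ± 0.884 FPKM in G9gl libraries and 67.3 ± 2.72 FPKM in WT libraries, and Rnf31, the catalytic subunit HOIP, 35.5 ± 2.45 FPKM in G9gl libraries and 34.1 ± 4.002 FPKM in WT libraries (SD, n = 3 each; adjusted p 0.65 and 0.69). Otulin, which encodes a protease that removes linear chains, had 187 FPKM in G9gl replicate 1 and 125 and 148 FPKM in the other G9gl libraries, against 126, 143 and 138.5 FPKM in WT libraries (adjusted p 0.39).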
